A study of Mus musculus with 12 samples.

Results

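The RNAs of 9 splicing regulators of muscle were examined for AGO2-bound sites in mouse tibialis anterior muscle. The genes were Mbnl1, Mbnl2, Celf1, Celf2, Rbfox1, Rbfox2, Rbm20, Rbm24 and Qk, and every listed peak that overlapped one of these 9 of 55450 annotated genes (GENCODE M21) was taken, if it did so by at least 1 nt on the same strand. No threshold was set on those peaks. AGO2 is the protein that carries microRNAs to their target RNAs, and in chimeric eCLIP it is cross-linked to RNA by ultraviolet light and immunoprecipitated. The groups were wild-type (WT) mice, labelled C57BL/6, and mice with a CRISPR deletion in the mir-486 hairpin (mir-486 KO), labelled FVB N/J, all 6 months old and male. Strain and genotype therefore cannot be told apart from the labels, whereas the methods describe a C57BL/6J background for the KO line. Each of 2 library sets held 1 total AGO2 library per genotype and 1 input library for each. Neither source says whether the sets came from different mice, so a spread over the sets may be technical. The libraries enriched for miR-486 were not analysed here.

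In set 1 the 9 genes held 484 of 92451 listed peaks in WT and 881 of 119859 in KO. In set 2 they held 1263 of 244814 in WT and 1311 of 256219 in KO. Set 1 thus listed fewer peaks than set 2, and its WT library listed the fewest. The lists hold folds and p-values but no read counts, so depth is unknown. Genes that mark skeletal muscle fibres had 422 to 811 listed peaks per library over 8 genes. Markers of neurons, which share several of the 9 regulators, had 3 to 9 listed peaks per library over 4 genes, with Snap25 at 0. Markers of Schwann cells had 20 to 56 peaks over 3 genes, and markers of endothelium had 19 to 96 over 2 genes. Markers of macrophages had 1 to 8 peaks over 2 genes, and markers of cardiac muscle had 4 to 16 over 2 genes, with Nppa at 0.

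MBNL and CELF proteins bind pre-mRNA near alternative exons and often act in opposite directions on the same exon, and the balance between them shifts as muscle matures. MBNL proteins are sequestered on expanded CUG repeats in myotonic dystrophy, where CELF1 rises. RBFOX proteins bind UGCAUG words beside muscle and neuronal exons, QK binds ACUAAC words, RBM20 directs titin splicing and RBM24 promotes the inclusion of muscle exons. MicroRNAs carried by AGO2 lower the levels of their target mRNAs, mostly through sites in the 3′ UTR that pair with the microRNA seed, its bases 2 to 8. Introns belong to the pre-mRNA and are removed before export.

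Introns held most of the listed peaks of the 9 genes, but 3′ UTRs held them more densely. Introns made up 59.1% of the members' peaks in WT set 1, 76.6% in KO set 1, 78.3% in WT set 2 and 78.5% in KO set 2. Among all listed peaks in genes the same shares were 21.4%, 39.5%, 41.7% and 43.1%. The 3′ UTR share of the members' peaks was 18.4%, 9.88%, 7.36% and 8.01% in the same order, against 19.2%, 18.2%, 12.1% and 11.4% of all peaks. These genes are long, with Rbfox1 spanning 1530 kb and Celf2 970 kb. Per kb of annotated sequence, the 3′ UTR carried more listed peaks than the introns in all 4 libraries for 8 of the 9 genes. The exception was Rbm20, the titin splicing factor, whose ratio ran from 0.857 in KO set 2, which listed 1 peak in its 3′ UTR, to 63.9 in WT set 1. For Qk the ratio lay between 6.92 and 10.8, for Celf1 between 9.9 and 28.7, and for Mbnl2 between 5.04 and 6.33.

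**Figure D1:**
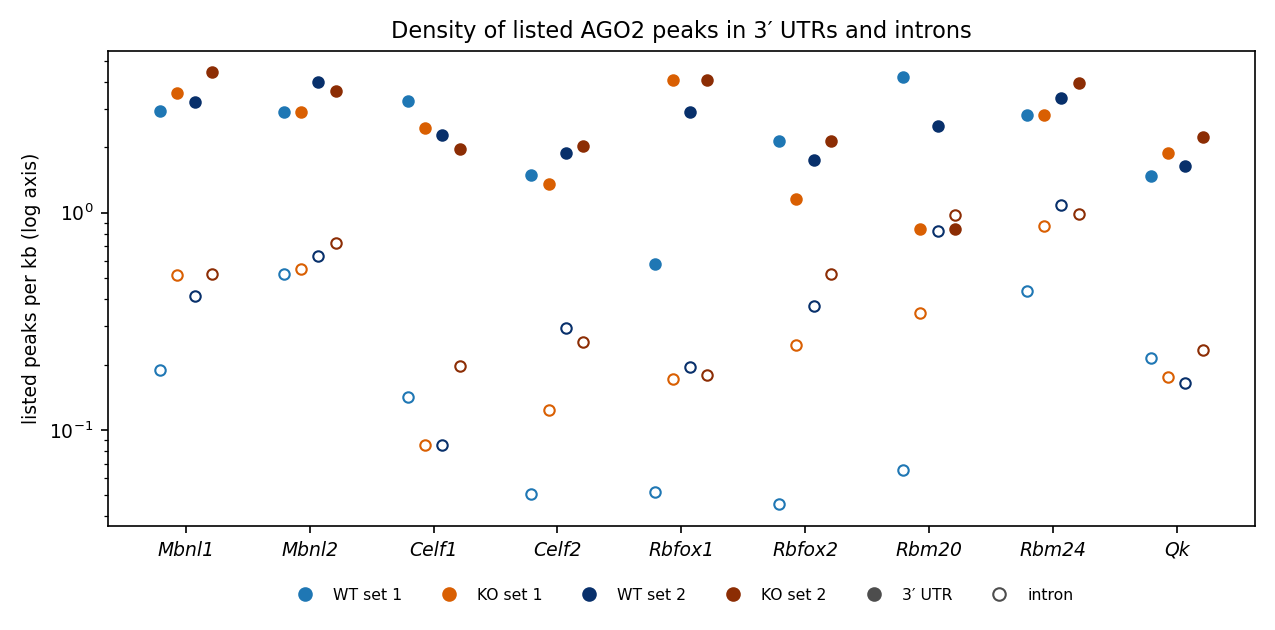
Listed AGO2 peaks per kb of annotated 3′ UTR (filled circles) and intron (open circles) for each of the 9 genes, on a log axis, with 1 point per library. Filled points lie above the open points of the same library except in Rbm20, where the KO set 2 points are 0.838 and 0.978 peaks per kb.

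The number of listed peaks in introns moved with the library more than the number in 3′ UTRs did. The 3′ UTRs of the 9 genes together had 89 listed peaks in WT set 1, 87 in KO set 1, 93 in WT set 2 and 105 in KO set 2. Their introns had 286, 675, 989 and 1029. Many intron peaks carried an identical fold. In WT set 1, 22.4% of the members' intron peaks had a log2 fold over input of 0.46, and in KO set 1, 18.2% had 0.38. In set 2 the most common value was shared by 6.67% of intron peaks in WT and by 6.71% in KO. The identical values show how coarse the folds of many intron peaks were, above all in set 1.

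Among the members' 3′ UTR sites listed in all 4 libraries, a Qk site had the highest mean log2 fold over input, 3.04, and a Celf1 site followed with 2.75. Qk encodes quaking, an RNA-binding protein of the STAR family that controls muscle and myelin splicing. The listed Qk 3′ UTR peak with the highest fold among those overlapped in every library lay at chr17:10210681-10210845 on the minus strand (GRCm38) and came from KO set 1. Its log2 fold over input was 2.66 in WT set 1, 3.80 in KO set 1, 2.70 in WT set 2 and 3.00 in KO set 2. Every library was far above input there, and the KO values lay above both WT values, with means of 2.68 ± 0.03 in WT and 3.40 ± 0.57 in KO (SD, n = 2 each). The peak was chosen by its fold in KO set 1, so the high value of that library is partly by construction. Within the sets, WT over KO at the widest overlapping peak was −0.43 in set 1 and 0.11 in set 2, so the sets differed in direction. The −log10 p over input ran from 7.84 in WT set 1 to 77.1 in WT set 2.

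The letters under this Qk peak hold words that pair with 3 muscle-related microRNA seeds within a short stretch. Each is shown with 11 bases on both sides, on the strand of the mRNA and written with T for U, and the capitals mark the 7 bases that pair with bases 2 to 8 of the microRNA. The order is that along the mRNA, and the sequence is GRCm38 on the minus strand. Between the miR-499 and miR-133 words lie 21 nt, and between the miR-133 and miR-23 words lie 14 nt, so neighbouring windows overlap.
miR-499 word, chr17:10210795-10210823: gctgttgaatgAGTCTTAaaaattatact
miR-133 word, chr17:10210767-10210795: tactgttaagtGGACCAAgtttgatgaag
miR-23 word, chr17:10210746-10210774: tgatgaagtagAATGTGAgaggttgatta
The microRNAs, with the seed in capitals (RefSeq, GRCm38), are
miR-499-5p: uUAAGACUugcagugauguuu
miR-133b-3p: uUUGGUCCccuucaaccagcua
miR-23a-3p: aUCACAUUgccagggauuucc
miR-133 is made in striated muscle, and miR-499 is encoded within a gene for a slow myosin heavy chain. The match of letters is a description and does not show which microRNA was bound.

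A second place in the Qk 3′ UTR was above input in each library. Peaks of the 4 libraries that overlapped or touched were joined into sites, a step chosen after values were seen, and this site spanned chr17:10211549-10211958. The highest log2 fold within it was 1.96 in WT set 1, 2.98 in KO set 1, 2.49 in WT set 2 and 2.56 in KO set 2, and the lowest −log10 p was 4.72. It holds a word for miR-206, 1001 nt upstream of the miR-499 word. miR-206 shares its seed with miR-1, and both are microRNAs of muscle.
miR-206 word, chr17:10211803-10211831: aaaatgacaacACATTCCatgcatggctc
miR-206-3p: uGGAAUGUaaggaagugugugg
The same window also holds the RBFOX word TGCATG. The peaks within 25 nt of the miR-206 word itself had 1.96, 1.99, 2.49 and 2.32. The other 7 sites of the Qk 3′ UTR listed in all 4 libraries had lower means over the libraries, of which the highest was 1.43 at chr17:10212589-10212740, with 2.08 in WT set 1. At the site with miR-27, miR-101 and miR-181 words the folds ran from −0.82 to −0.35.

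**Figure D2:**
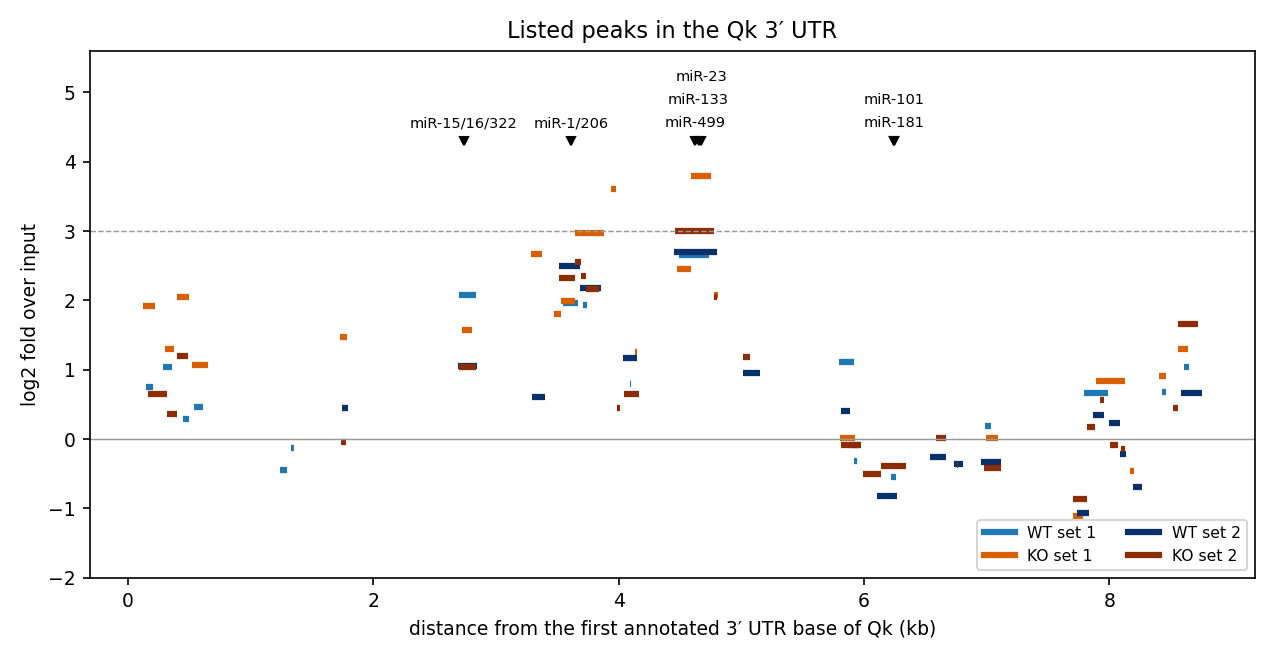
Log2 fold over input of each listed peak in the Qk 3′ UTR (bars, coloured by library, drawn to their width) against the distance in kb from the first annotated 3′ UTR base, with the dashed line at a log2 fold of 3 and triangles at the words near peaks of all 4 libraries. The bars of all libraries reach their highest shared values, 2.66 to 3.80, over the miR-499, miR-133 and miR-23 words.

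Celf1 and Rbfox1 also had a 3′ UTR peak with a high log2 fold over input in each library. Celf1, which promotes the fetal splicing pattern, had its highest shared peak at chr2:91013642-91013737 on the plus strand. Its log2 fold was 4.23 in WT set 1, 2.30 in KO set 1, 2.16 in WT set 2 and 2.29 in KO set 2, a mean of 3.20 ± 1.46 in WT and 2.29 ± 0.01 in KO (SD, n = 2 each). WT set 1, whose fold chose the peak, was high, and the other 3 libraries lay between 2.16 and 2.30. The −log10 p over input at this Celf1 peak was 2.70 in KO set 1, below 3, and at least 5.26 in the other libraries. Rbfox1 had its highest shared peak at chr16:7410405-7410604, with 3.12 in WT set 1, 2.34 in KO set 1, 1.99 in WT set 2 and 2.51 in KO set 2. The genotypes overlapped there, with means of 2.55 ± 0.80 in WT and 2.43 ± 0.12 in KO (SD, n = 2 each). None of the words searched lay within the Rbfox1 site. The Celf1 peak holds a miR-133 word, like the Qk peak, and a Celf1 site further along the 3′ UTR, with folds of 2.55, 1.25, 2.42 and 2.20, holds a miR-23 word.
Celf1 miR-133 word, chr2:91013682-91013710: tttgttgagaaGGACCAAcaccagtccac
Celf1 miR-23 word, chr2:91018991-91019019: agtgatttcacAATGTGAagagaaaaaaa

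The remaining genes had 3′ UTR peaks that were shared by the libraries but not steady in height. Each named peak was chosen by its own fold in 1 library, so a high value in that library is partly by construction. At the Celf2 peak, chr2:6542708-6542777 on the minus strand, the log2 fold was −0.03 in WT set 1, 2.89 in KO set 1, 0.88 in WT set 2 and 0.67 in KO set 2. The KO set 1 value alone was high, so its KO mean of 1.78 had an SD of 1.57 (n = 2). Rbfox2, the broadly expressed RBFOX paralog, had 2.46, 0.54, 0.97 and 2.82 in the same order at chr15:77083995-77084048, with the 2 genotypes crossing between the sets. Rbm20 had 2.04, −0.20, 1.23 and 1.09 at chr19:53864147-53864390. Both WT values of Rbm20 were above both KO values, but the nearest of them, 1.23 and 1.09, lay closer together than the values within either genotype. Rbm24 had 2.41, 1.21, 0.76 and 0.75 at chr13:46430875-46431027, and WT set 1 was again the highest library. It holds a miR-26 word, near which the folds were 2.41, 1.21, 0.45 and 0.75. A further Celf2 site, chr2:6544835-6545090, holds a miR-499 and a miR-29 word, and the peaks near both words had 2.04, 1.44, 1.21 and 1.30.
Rbm24 miR-26 word, chr13:46430885-46430913: ttggacttttaTACTTGAagaacttccta
miR-26a-5p: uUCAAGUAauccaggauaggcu
Celf2 miR-499 word, chr2:6544879-6544907: ctctcatcacaAGTCTTAaggtcttaatg
Celf2 miR-29 word, chr2:6544915-6544943: ctgcgtcatgtTGGTGCTtctgtggatta
miR-29a-3p: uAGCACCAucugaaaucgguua

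The MBNL genes also had listed 3′ UTR peaks in every library. Mbnl1 had 2.23 in WT set 1, 0.77 in KO set 1, −0.63 in WT set 2 and 0.13 in KO set 2 at chr3:60627907-60627992. WT set 1 alone was high there, and the peak had been chosen by its fold in that library. Another Mbnl1 3′ UTR site, chr3:60626430-60627454, was more even, with highest folds of 1.70, 1.38, 0.95 and 0.81 in the same order. Mbnl2 had 0.27, −0.09, −0.59 and 0.11 at chr14:120429004-120429100, all near input. The median log2 fold of all listed Mbnl2 3′ UTR peaks was −0.51 in WT set 1, −0.68 in KO set 1, −0.67 in WT set 2 and −0.87 in KO set 2. The same medians for Celf1 were 1.46, 1.21, 1.02 and 1.42. Over all listed 3′ UTR peaks the medians were 0.87, 0.61, 0.60 and 0.56, so Mbnl2 lay below and Celf1 above them in each library. Folds over input are already relative to the amount of each RNA in the input library, and a difference between genes was not tested.

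**Figure D3:**
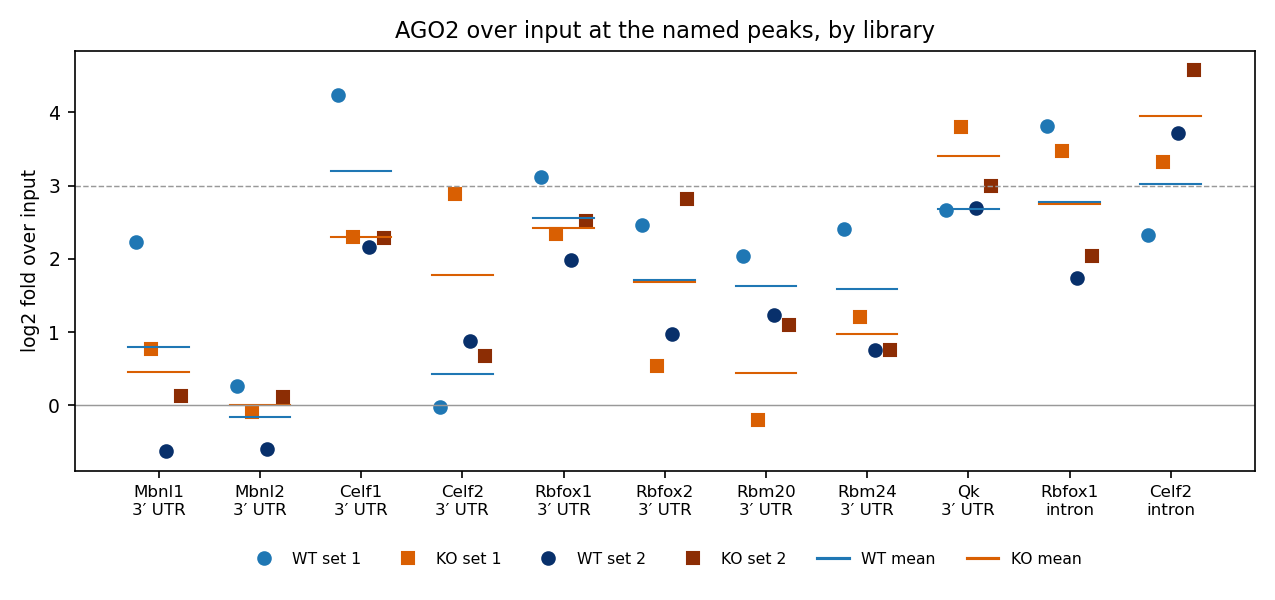
Log2 fold over input in each of the 4 libraries at the highest 3′ UTR peak of each gene that was overlapped in every library, and at an intron peak of Rbfox1 and of Celf2, with circles for WT, squares for KO, lines at the means of the 2 libraries per genotype and the dashed line at a log2 fold of 3. Qk, Celf1, the Rbfox1 3′ UTR and both intron peaks are above 1.7 in all 4 libraries, and Mbnl2 lies between −0.59 and 0.27.

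Sites above input in each library were few. Of 33 sites listed in all 4 libraries in the members' 3′ UTRs, 3 were above input in each library at a −log10 p of 3 or more, beside 6.43% of all such 3′ UTR sites. They were the 2 Qk sites and the Rbfox1 site. Of 72 such sites in the members' introns, 1 passed, in Rbfox1, beside 2.82% of all such intron sites. Sites in the introns recurred less than sites in the 3′ UTRs, as they did in all genes. Of the members' 1895 intron sites 3.8% were listed in all 4 libraries and 72.9% in only 1, whereas of their 108 3′ UTR sites 30.6% were listed in all 4 and 34.3% in only 1. Over all genes, 1.51% of intron sites and 17.8% of 3′ UTR sites were listed in all 4 libraries, and 84.1% and 52.5% in only 1.

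Words for 19 microRNA families of muscle were counted in all listed 3′ UTR peaks of the 9 genes, extended by 25 nt on each side. A word was the 7 letters that pair with bases 2 to 8, on the strand of the mRNA only. The words of miR-16 (TGCTGCT) and miR-103 (ATGCTGC) can overlap, as can those of miR-27 (ACTGTGA) and miR-128 (CACTGTG), and each was counted. At least 1 word lay in 25.8% of the peaks in WT set 1, 26.4% in KO set 1, 35.5% in WT set 2 and 35.2% in KO set 2. Among all listed 3′ UTR peaks the shares were 39.0%, 30.6%, 37.1% and 37.2%, so the members' shares were the lower ones in each library. The miR-23 word was found in 4 of 89, 3 of 87, 7 of 93 and 7 of 105 peaks, that is 4.49%, 3.45%, 7.53% and 6.67%. Among all 3′ UTR peaks it was found in 2.01%, 1.67%, 2.53% and 2.36%. Peaks of different libraries over 1 word are not independent, and no test was made. The let-7 word was found in 0 of 374 member peaks and in 2.21% of all 3′ UTR peaks.

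The annotated 3′ UTRs of the 9 genes contain 84 of these words in all. Peaks of all 4 libraries lay within 25 nt of 15 of the words, and no library listed a peak near 29. Qk had 25 words, of which 7 had peaks in all 4 libraries, and Celf2 had 18, of which 2 did. Both miR-499 words of the set had peaks in all 4 libraries, as did 2 of 3 miR-133 words, the single miR-206 word and 2 of 11 miR-23 words. So did 2 of 5 miR-181 words, 2 of 6 miR-101 words, 2 of 6 miR-16 words, 1 of 4 miR-26 words and 1 of 5 miR-29 words. The miR-499, miR-133 and miR-23 words of Qk lie under a single peak and are not separate observations. Words read by the regulators themselves were also searched, and peaks of different libraries can lie over a single word. The QK word ACTAAC lay in 13 member 3′ UTR peaks over the 4 libraries, of which 10 were in Qk. The RBFOX word TGCATG lay in 25, of which 13 were in Qk, though in WT set 2 only 2 of 6 were. As a share of the members' 3′ UTR peaks, TGCATG was in 5.62%, 8.05%, 6.45% and 6.67% against 2.92%, 3.17%, 4.07% and 4.01% of all 3′ UTR peaks. ACTAAC was in 2.25%, 3.45%, 3.23% and 4.76% of them, against 1.04%, 0.915%, 1.55% and 1.49%. Both words were searched on the strand of the RNA, and the number of peaks behind each of these shares is small.

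In the introns of Rbfox1, Celf2 and Mbnl1, few or no listed peaks lay in the first part of the gene. Rbfox1 encodes several isoforms from promoters spread over most of the gene. Of its 908 listed intron peaks in the 4 libraries together, 903 (99.4%) lay after the start at chr16:7069846, which is 1180 kb into the gene, with 77.6% of the gene before it. The number before that start was 1 of 79 in WT set 1, 3 of 260 in KO set 1, 1 of 297 in WT set 2 and 0 of 272 in KO set 2. The first of them lay 1160 kb into the gene. Celf2, whose paralog is Celf1, had its first intron peak at 279 kb. Of its 683 intron peaks, 679 (99.4%) lay after the start at chr2:7081207 on the minus strand, 428 kb into the gene, with 44.2% of the gene before it. For Mbnl1 all 226 intron peaks lay after the start at chr3:60501278, 28.4 kb into the gene, with 18.1% of the gene before it. Each start given is the last annotated one with at most 1% of the gene's intron peaks before it, a rule chosen after the positions were seen, so the share after it is high by construction. In the short gene Rbm24 all 31 intron peaks lay after an annotated start 3.39 kb in, with 26.8% of the gene before it. That start, of a retained-intron transcript, is the nearest one before the first intron peak, so 0 peaks before it is by construction. In the other 5 genes the first intron peak lay 0.422 to 2.56 kb into the gene. Rbfox1 has 8 annotated starts, Celf2 22 and Mbnl1 21.

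**Figure D4:**
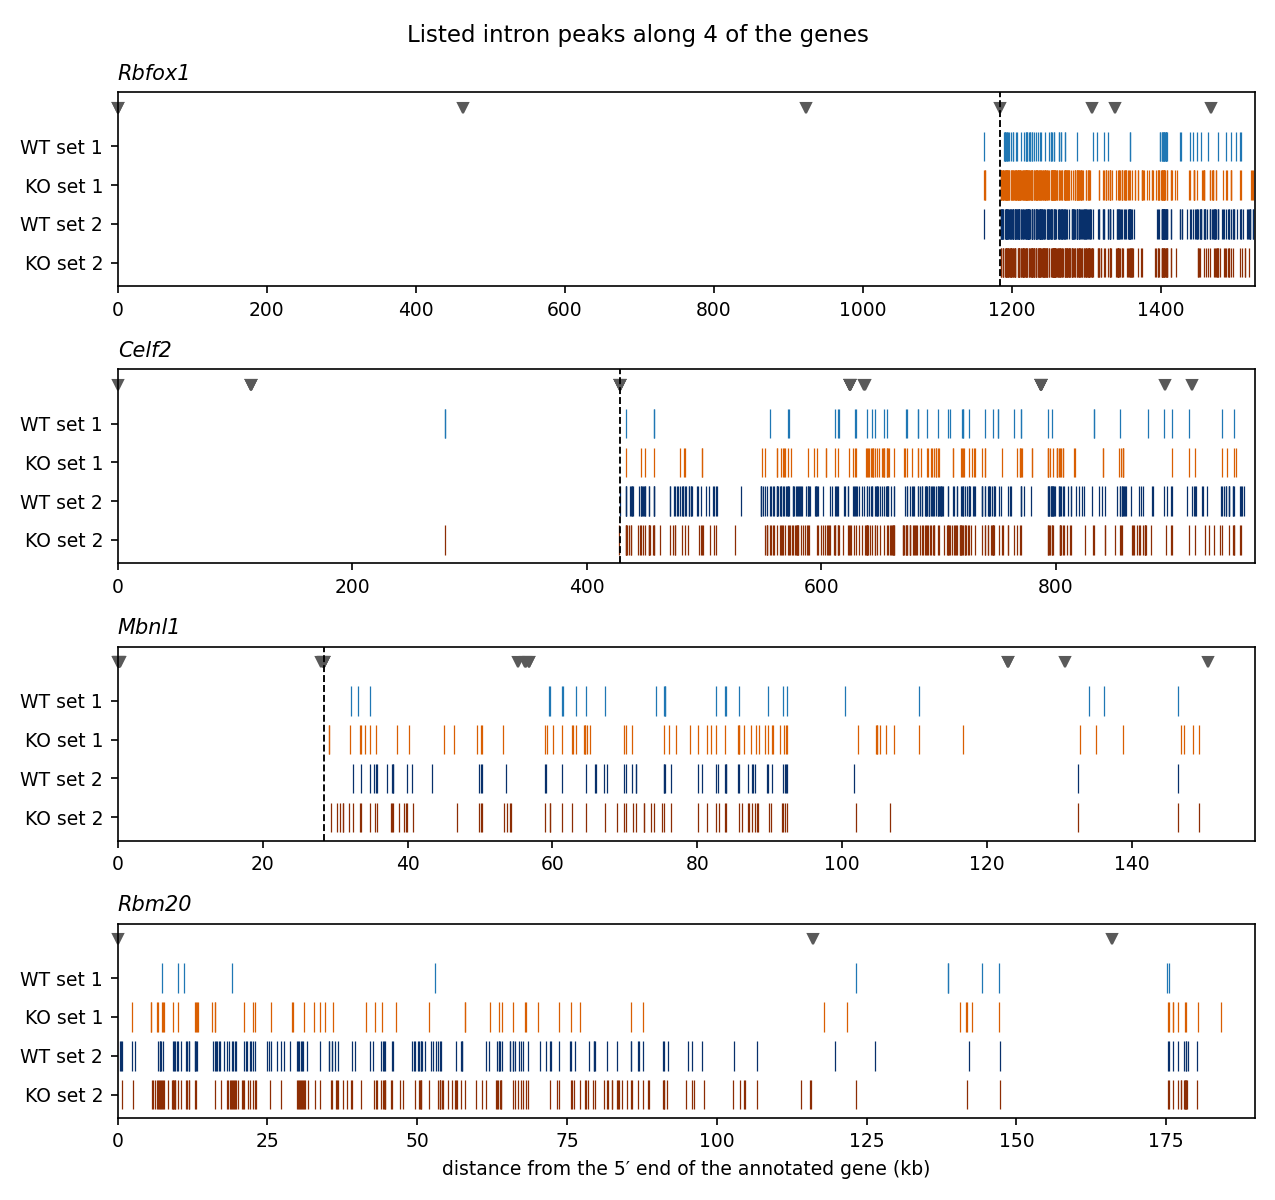
Position of each listed intron peak (vertical lines, 1 row per library) along Rbfox1, Celf2, Mbnl1 and Rbm20, in kb from the 5′ end of the annotated gene, with triangles at annotated transcript starts and a dashed line at the internal start described. The first 1180 kb of Rbfox1 hold 5 of 908 intron peaks and the first 428 kb of Celf2 hold 4 of 683, in both genotypes and sets.

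Rbm20 differed in that its intron peaks crowded the first part of the gene. In Rbm20 the first 100 kb, 52.7% of its length, held 5 of 12 intron peaks in WT set 1 (41.7%) and 47 of 63 in KO set 1 (74.6%). In set 2 they held 135 of 150 in WT (90.0%) and 155 of 179 in KO (86.6%). Only WT set 1, with 12 peaks, fell below the share of length. Intron peaks per kb of Rbm20 rose from 0.0656 in WT set 1 to 0.978 in KO set 2, the widest range between libraries among the 9 genes.

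Few listed peaks of the 9 genes passed thresholds of a log2 fold of 3 and a −log10 p of 3 over input. They numbered 6 in WT set 1 (1.24%, beside 3.57% of all peaks), 3 in KO set 1 (0.341%, beside 0.848%), 9 in WT set 2 (0.713%, beside 1.42%) and 9 in KO set 2 (0.686%, beside 1.23%). The share was below that of all peaks in each library. The members' peaks were more often intronic, and intron peaks passed less often than 3′ UTR peaks in all genes. These shares are therefore not matched by region. Of these 27 peaks, 19 were intronic and 7 were in 3′ UTRs, and 1 was in the Celf1 coding sequence. In 3′ UTRs, 4 of 89 passed in WT set 1 (beside 5.9% of all 3′ UTR peaks) and 2 of 87 in KO set 1 (1.64%). In set 2, 0 of 93 passed in WT (3.56%) and 1 of 105 in KO (3.55%). In introns, 1 of 286 passed in WT set 1 (beside 1.38% of all intron peaks) and 1 of 675 in KO set 1 (0.551%). In set 2, 9 of 989 passed in WT (0.905%) and 8 of 1029 in KO (0.63%), so the members were not below all intron peaks there. The 3′ UTR peaks were thus mostly of set 1 and the intron peaks mostly of set 2. Adjoining peaks can carry a single value, and the 19 intron peaks lay at 13 separate places. Rbm24 had no peak past the thresholds in any library.

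Few of the peaks past the thresholds recurred past them in the other set. Of 15 such WT peaks, 0 overlapped one of the other set, whereas 36.2% of all such WT peaks did. Of 12 KO peaks, 2 did (16.7%, beside 36.0%), both over the Qk peak described above. Between the genotypes of a set, 2 of 9 overlapped in set 1 (22.2%, beside 33.3%) and 8 of 18 in set 2 (44.4%, beside 57.5%). The shares over all peaks are not matched by region, and intron sites recurred less than 3′ UTR sites in all genes. At a log2 threshold of 1, 19.7% of 76 WT peaks and 22.2% of 63 KO peaks of the members recurred between the sets. The share over all peaks was not computed at that threshold, and the shares over all peaks given above do not apply to it. At 13 of the 15 WT peaks and 9 of the 12 KO peaks, the 2 named included, the other set of that genotype listed some peak.

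Of the 19 intron peaks, 16 overlapped a listed peak of the other set. The one site with a −log10 p of at least 3 in each library was in Rbfox1 at chr16:7077380-7077529, 7294 nt from the nearest annotated exon. It had log2 folds of 3.81 in WT set 1, 3.47 in KO set 1, 1.74 in WT set 2 and 2.04 in KO set 2, and each −log10 p was at least 4.09. Set 1 was the higher set and the genotypes did not separate. A second Rbfox1 peak, at chr16:7208931-7209142, had 1.68, 2.50, 2.80 and 4.19 in the same order. In Mbnl1 the peak at chr3:60556703-60556775 had 1.20, −0.06, 3.19 and 1.96, and in Rbm20 the peak at chr19:53824432-53824543 had 1.46, 1.61, 3.12 and 1.77. At both, WT set 2 was the highest library. A Rbm20 peak of KO set 2 at chr19:53855372-53855446 had 2.26 in KO set 1 and 3.82 in KO set 2 and was listed in neither WT library. A Rbfox1 peak at chr16:7107606-7107646 had 0.91 in KO set 1 and 3.64 in WT set 2. In Mbnl2 the peak at chr14:120364940-120365045 had 1.20 in WT set 1, 3.93 in WT set 2 and 2.56 in KO set 2.

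Celf2 had 8 of the 19 intron peaks, at 3 places. At chr2:6738930-6739283 the highest folds were 2.20 in WT set 1, 1.80 in KO set 1, 3.87 in WT set 2 and 3.82 in KO set 2. At chr2:6788919-6789027 they were 1.87, 1.12, 3.72 and 3.82. Set 2 was higher than set 1 in both genotypes at both places. The third place was a stretch of only 27 nt on the minus strand, at chr2:7052027-7052053 and 25211 nt from the nearest annotated exon, with 2.33, 3.32, 3.72 and 4.58. Its −log10 p was 0.92 and 2.51 in set 1 and 9.45 and 13.3 in set 2. It is shown whole because all 4 libraries listed peaks within this short stretch, and none of the words searched lay in it.
Celf2 intron peak, chr2:7052027-7052053: gggacgagaggtaggagagcgttctgg

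The direct comparison set the AGO2 libraries of the 2 genotypes against each other within each set. It was not divided by input, so the amount of each RNA can enter these folds. In set 1, 1 of 484 WT peaks passed the thresholds for WT over KO (0.207%, beside 0.469% of all peaks), and 9 of 881 KO peaks passed for KO over WT (1.02%, beside 0.179%). In set 2, 0 of 1263 WT peaks and 0 of 1312 KO peaks passed, beside 0.0192% and 0.0144% of all peaks. None of the 10 peaks of set 1 therefore passed in set 2. Over all genes the shares for WT over KO in set 1 were 0.423% of 3′ UTR and 0.324% of intron peaks. In set 2 they were 0.027% and 0.0147% for WT over KO and 0.0138% and 0.0181% for KO over WT, and 0 member peaks of either region passed in these 3 lists.

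Of the 9 peaks higher in KO in set 1, 7 were in Rbfox1 introns, 1 was in a Mbnl1 intron and 1 was in the Qk 3′ UTR (beside 0.229% of all 3′ UTR peaks). The 7 Rbfox1 peaks were 2.69% of its 260 listed intron peaks, beside 0.285% of all intron peaks in that comparison. The highest log2 fold of KO over WT was 5.05, at chr16:7104819-7104985, where the overlapping peaks of set 2 gave 0.05. The other Rbfox1 peaks began at chr16:7080557 (3.84), chr16:7083645 (4.16), chr16:7108925 (3.23), chr16:7112423 (3.06), chr16:7169680 (3.75) and chr16:7227937 (3.84). The Mbnl1 peak at chr3:60531780-60531889 had 3.30 in set 1 and 0.23 in set 2, and the Qk peak at chr17:10210620-10210653, at the edge of the shared Qk site, had 3.11 and −0.48. For the 7 of these 9 peaks that had an overlapping peak in set 2, the set 2 fold of KO over WT lay between −0.51 and 0.23, taken from the WT list with its sign turned where the KO list had none. Over input in KO set 1, these 9 peaks had log2 folds from 0.31 to 2.80. Their −log10 p over input there ran from 0.11 to 2.49, so none of the 9 reached the threshold of 3. The set 1 WT library had a listed peak under 0 of the 9, which follows largely from choosing peaks that were low in that library. It listed 79 Rbfox1 intron peaks where the KO library of that set listed 260. In set 2 the numbers were 297 and 272. The part of this difference between the libraries of set 1 in the folds was not tested.

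The peak higher in WT in set 1 was in the coding sequence of Mbnl2, at chr14:120389008-120389043. Its WT over KO was 3.11 in set 1 with a −log10 p of 6.34, and −0.04 in set 2. Over input the same place had 1.02 in WT set 1, −1.94 in KO set 1, −0.03 in WT set 2 and −0.32 in KO set 2, so the KO set 1 library was low there and the other 3 lay nearer to input.

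The listed peaks of each gene were also summarised by region, as the mean of the median WT over KO at WT peaks and the median at KO peaks with its sign turned, which gives 1 value per set. Across all genes 7527 gene regions with at least 3 peaks in each list were tested by limma, of which 24 belonged to the 9 genes. At an adjusted p under 0.05, 0 gene regions were called (0% of 7527), and 341 had an unadjusted p under 0.05. In simulated data with 200 changed gene regions, this fit recovered 9.5% of log2 changes of 1 and 99.5% of changes of 2. It would thus miss most changes of a log2 fold of 1 or less. For all 24 member regions the adjusted p was 0.996. The values of the sets had the same sign in 12 of the 24 and opposite signs in 12.

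Mbnl2 and Rbfox1 had the member values furthest from 0. In the Mbnl2 coding sequence WT over KO was 1.25 in set 1 and 0.18 in set 2, a mean of 0.71 ± 0.34 (SE, limma, Benjamini-Hochberg adjusted p = 0.996). In the Mbnl2 3′ UTR it was 0.79 and 0.46, a mean of 0.62 ± 0.34 (SE, limma, adjusted p = 0.996). In the Rbfox1 introns it was −1.21 and −0.11, a mean of −0.66 ± 0.34 (SE, limma, adjusted p = 0.996). The set 1 value was the larger one in each case. In limma each SE is moderated toward that of all gene regions, and it was 0.34 or 0.35 in every member region. It does not give the spread of a single region over its 2 sets. For comparison, the median over all genes was 0.50 in set 1 and −0.01 in set 2 for coding sequences, 0.00 and 0.20 for 3′ UTRs, and −0.05 and 0.01 for introns. The coding sequence of Mbnl2 in set 1 therefore stood less far from the other genes than from 0.

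**Figure D5:**
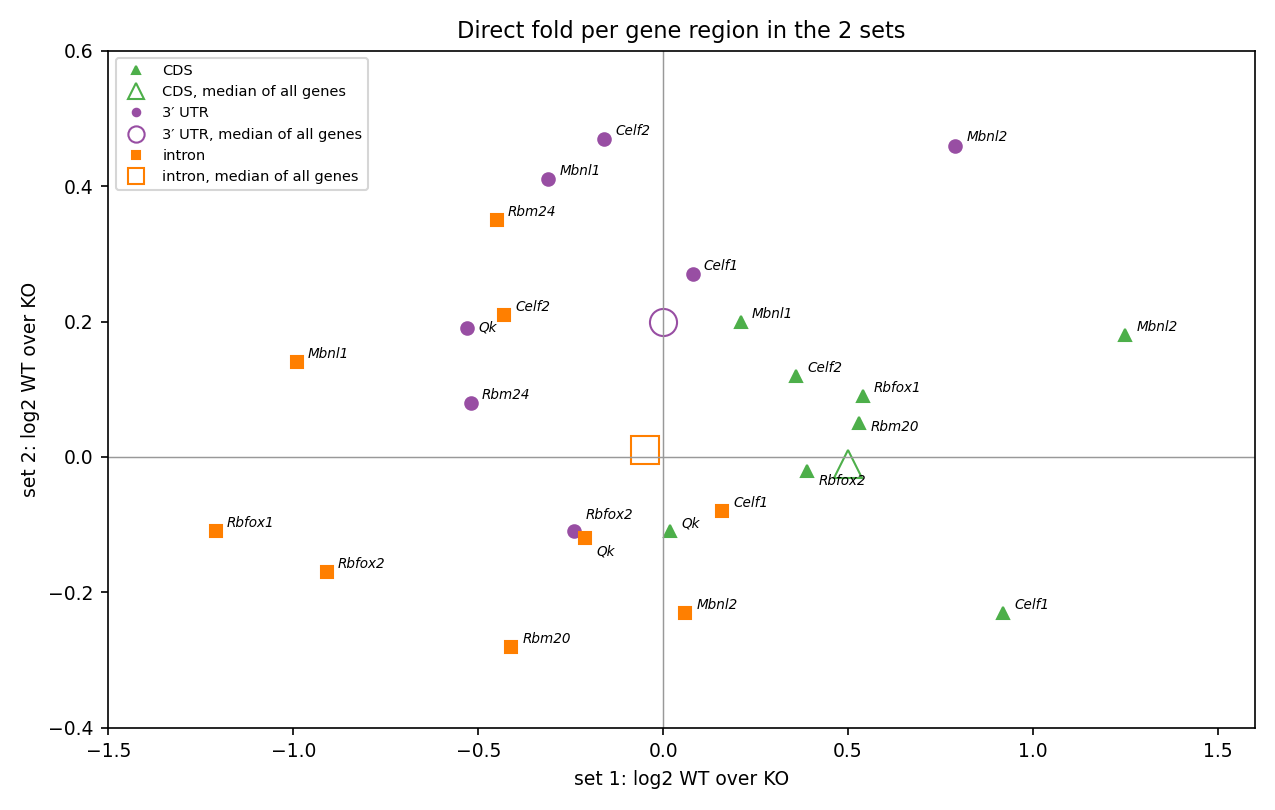
Log2 WT over KO of each region of the 9 genes with at least 3 peaks in each list, in set 1 (horizontal axis) and set 2 (vertical axis, on a narrower scale), with coding sequences as triangles, 3′ UTRs as circles, introns as squares and large open symbols at the medians over all genes. Values spread from −1.21 to 1.25 in set 1 and from −0.28 to 0.47 in set 2.

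The fold over input per gene region was also tested, with the 4 libraries as samples. Of 7528 gene regions 0 were called by limma (0%), with 203 at an unadjusted p under 0.05. The member region with the smallest p was the Mbnl1 coding sequence, where the median log2 fold over input was 0.81 in WT set 1, −0.53 in KO set 1, 0.04 in WT set 2 and −0.63 in KO set 2. Both WT values were above both KO values, a difference of 1.0 ± 0.44 (SE, limma, adjusted p = 0.963). The Qk 3′ UTR had 0.72, 1.48, 0.38 and 0.45 in the same order, and its genotypes overlapped. In the Rbfox1 introns WT minus KO over input was 0.08 in set 1 and −0.19 in set 2. Their mean was −0.06 ± 0.39 (SE, limma, adjusted p = 0.992), unlike the direct value of set 1. The set 1 value over input is the gap between medians of 0.46 in WT and 0.38 in KO. These were the most common folds of the members' intron peaks in those libraries and the medians of all intron peaks. The set 1 value over input is thus not particular to Rbfox1. For the Mbnl2 coding sequence the 2 values over input were 1.61 and 0.29, and for the Mbnl2 3′ UTR they were 0.17 and 0.20.

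A list of 53 other splicing regulators was set beside the 9 genes. Peaks were listed in 45 of them in WT set 1, 46 in KO set 1, 45 in WT set 2 and 45 in KO set 2. Over input, 13 of their 428 peaks passed the thresholds in WT set 1 (3.04%), 3 of 474 in KO set 1 (0.633%), 18 of 823 in WT set 2 (2.19%) and 16 of 842 in KO set 2 (1.9%). Each share was above that of the 9 genes in the same library, but the regions were not matched and the difference was not tested. In the direct lists of both sets, 1 of their peaks passed the thresholds for WT over KO in set 1 (0.234% of 428), in Puf60, and 0 of 474 passed for KO over WT in set 1. In set 2, 0 of 823 and 0 of 842 passed. Of their 40 gene regions in the limma test of direct folds, from 31 genes, 0 were called. Puf60 is named because the count was 1, after its value was seen.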

How the data were processed

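The members and gene lists were chosen with earlier results of these data known. The authors trimmed and aligned reads (cutadapt and STAR are among the tools in the submitters' processing notes), called peaks in each AGO2 library (the methods list Clipper) and compared reads within each peak between libraries. For each peak the authors deposited the log2 fold and the −log10 p of that comparison (highest value 400), in 4 lists of AGO2 library over input and 4 direct lists, WT over KO at WT peaks and KO over WT at KO peaks. Peak values are the authors' own.

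Peaks were matched to GENCODE M21 genes with bedtools 2.31.1. The end positions of the peaks fitted the GRCm38.p6 reference on 21 of 21 chromosomes. The labels name a later GENCODE release than the one used. The region was read at the peak midpoint, with coding sequence before 5′ UTR, 3′ UTR, noncoding exon and intron. Few member peaks (4 to 13 per library) also lay in another gene of the same strand. Gene regions were tested with limma 3.58.1, two-sided, with Benjamini-Hochberg adjustment over all gene regions. A 2 against 2 exact permutation test cannot go below p = 0.333, two-sided, so single peaks were not tested. Named peaks were the highest shared 3′ UTR peak of each gene, all peaks past the direct thresholds, and intron peaks past the input thresholds and listed in both sets. MicroRNA sequences came from RefSeq (19 of 20 families matched, miR-486a-5p did not). The direct fit, the overlaps and the word searches were tested on simulated data. Thresholds, region rules, extensions and left-out sets were varied.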

Additional observations from a re-analysis of the deposited data

How the results depend on the processing

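The limits are the 2 libraries per genotype, unknown read depth, and the many intron peaks with identical folds. The member counts of 3′ UTR peaks stayed within 1.5 times under each alternative run (mean per library 93.5, and 88.0 to 99.0 with 1 set left out). The mean of intron peaks was 744.75, and 480.5 to 1009 with 1 set left out. Peaks past the input thresholds numbered 15 in WT and 12 in KO in both sets together. They numbered 76 and 63 at a log2 threshold of 1, 1 and 3 at 4, and 6 and 6 at a −log10 p of 5. With 1 set left out they numbered 6 to 9 in WT and 3 to 9 in KO. Direct peaks higher in WT numbered 1, and those higher in KO numbered 9. They numbered 11 and 23 at a log2 threshold of 1, 0 and 2 at 4, 3 and 24 at a −log10 p of 2, and 1 and 2 at a −log10 p of 5. With 1 set left out they were 0 to 1 and 0 to 9, since all were in set 1.

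In the limma tests 0 member regions were called under each alternative. Over all genes the direct test called 74 gene regions with WT peaks only, 1 with KO peaks only, 1 with at least 5 peaks per list and 5 after centring, all higher in WT, and the input test called 1 after centring. With the set as a replicate block, the input test called 0. The sets were not shown to pair the libraries: the correlation of same-set deviations was 0.171, over only 2 pairs. The share of member 3′ UTR peaks with a word was 31.0%, and 25.4% without extension, 37.7% with 50 nt, 62.3% with 6-nt words and 42.9% of the 7 peaks past the thresholds. Among all 3′ UTR peaks the shares under the same alternatives were 28.1%, 42.6%, 67.7% and 63.2%, each above that of the members. The 4 sites above input in each library became 7 at a −log10 p of 2 and 2 at 5, and 4 to 26 with 1 set left out, alternatives chosen after seeing the data.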
